A study of Mus musculus with 8 samples.

Results

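The 8 genes of renal phosphate handling described here were followed through the kidney, namely the sodium-phosphate cotransporters Slc34a1 (NaPi-IIa, ENSMUSG00000021490), Slc34a3 (NaPi-IIc, ENSMUSG00000006469), Slc20a1 (PiT-1, ENSMUSG00000027397) and Slc20a2 (PiT-2, ENSMUSG00000037656), the phosphate exporter Xpr1 (ENSMUSG00000026469), the FGF23 co-receptor Kl (klotho, ENSMUSG00000058488), the growth factor receptor Fgfr1 (ENSMUSG00000031565) and the parathyroid hormone receptor Pth1r (ENSMUSG00000032492). They were taken by name, and all 8 were found among the 32285 genes counted. Single-nucleus RNA-seq had been performed on kidneys of 8 male mice of C57BL/6J background, 2 for each combination of genotype and time point. Ctrl mice were Bmal1 lox/lox. cKOt mice, their littermates, were Bmal1 lox/lox and carried the transgenes Pax8-rtTA and LC-1, with which doxycycline induces Cre along the renal tubule, so Bmal1 (Arntl) was targeted in tubular epithelium and not by design in vessels, interstitium or immune cells. Both genotypes drank doxycycline (2 mg/ml, with 20 mg/ml sucrose) for 2 weeks from 8 weeks of age, lived under 12 h of light and 12 h of darkness, and were killed at 14 weeks of age. ZT4 lies in the light phase and ZT16 in the dark phase (ZT0 is light on). The light cycles had been shifted so that all kidneys were collected at one clock time. Each library came from 1 mouse, and p-values measure the spread between these mice.

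Phosphate filtered by the glomerulus is taken back almost entirely in the proximal tubule. NaPi-IIa and NaPi-IIc carry it through the brush border, PiT-1 and PiT-2 are more widely used carriers of the same ion, and XPR1 is the known phosphate exporter of animal cells. Parathyroid hormone, through PTH1R, and FGF23, through an FGF receptor joined to klotho, remove the NaPi-II proteins from the brush border and so increase phosphate excretion. Klotho is best known from the distal convoluted tubule, where it also takes part in calcium reabsorption, and is made in the proximal tubule too. BMAL1 is a transcription factor at the core of the circadian clock, and plasma phosphate and parathyroid hormone vary over the day.

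The libraries held 8758 to 10975 nuclei and 36548873 to 54500820 UMIs (unique molecular identifiers, 1 per captured transcript), 81391 nuclei in all, with a median of 3003.5 to 4830 UMIs per nucleus. Nuclei were clustered on mRNAs without the 8 genes, and clusters were named by marker genes. A total of 19 classes with at least 10 nuclei in every library were compared: proximal convoluted and straight tubule (PCT, PST), thin descending and ascending limb (thinDL, thinAL), thick ascending limb (TAL), macula densa (MD), early and late distal convoluted tubule (DCT1, DCT2), connecting tubule (CNT), principal cells of the cortical and medullary collecting duct (CCD, MCD), alpha- and beta-intercalated cells (aIC, bIC), podocytes (Podo), vascular cells (Vasc), mesangial cells and pericytes (Mes/Per), smooth muscle and juxtaglomerular cells (SMC/JGC), urothelium (UT) and myeloid cells (Myel). Levels are CPM, the UMIs of a gene per 1000000 mRNA UMIs of that class in that library, with these totals scaled between libraries by TMM factors. Every pair of libraries shared barcodes, 18 to 42 per pair, and no pair of replicates agreed within sampling noise. Over all nuclei Arntl stood at 38.2 and 33.1 CPM in Ctrl at ZT4, at 154 and 159 in Ctrl at ZT16, at 295 and 201 in cKOt at ZT4 and at 297 and 267 in cKOt at ZT16. It was thus higher in every cKOt library than in every Ctrl library. UMIs were counted over the whole gene and not over the deleted part, so this does not check the deletion.

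**Figure D1:**
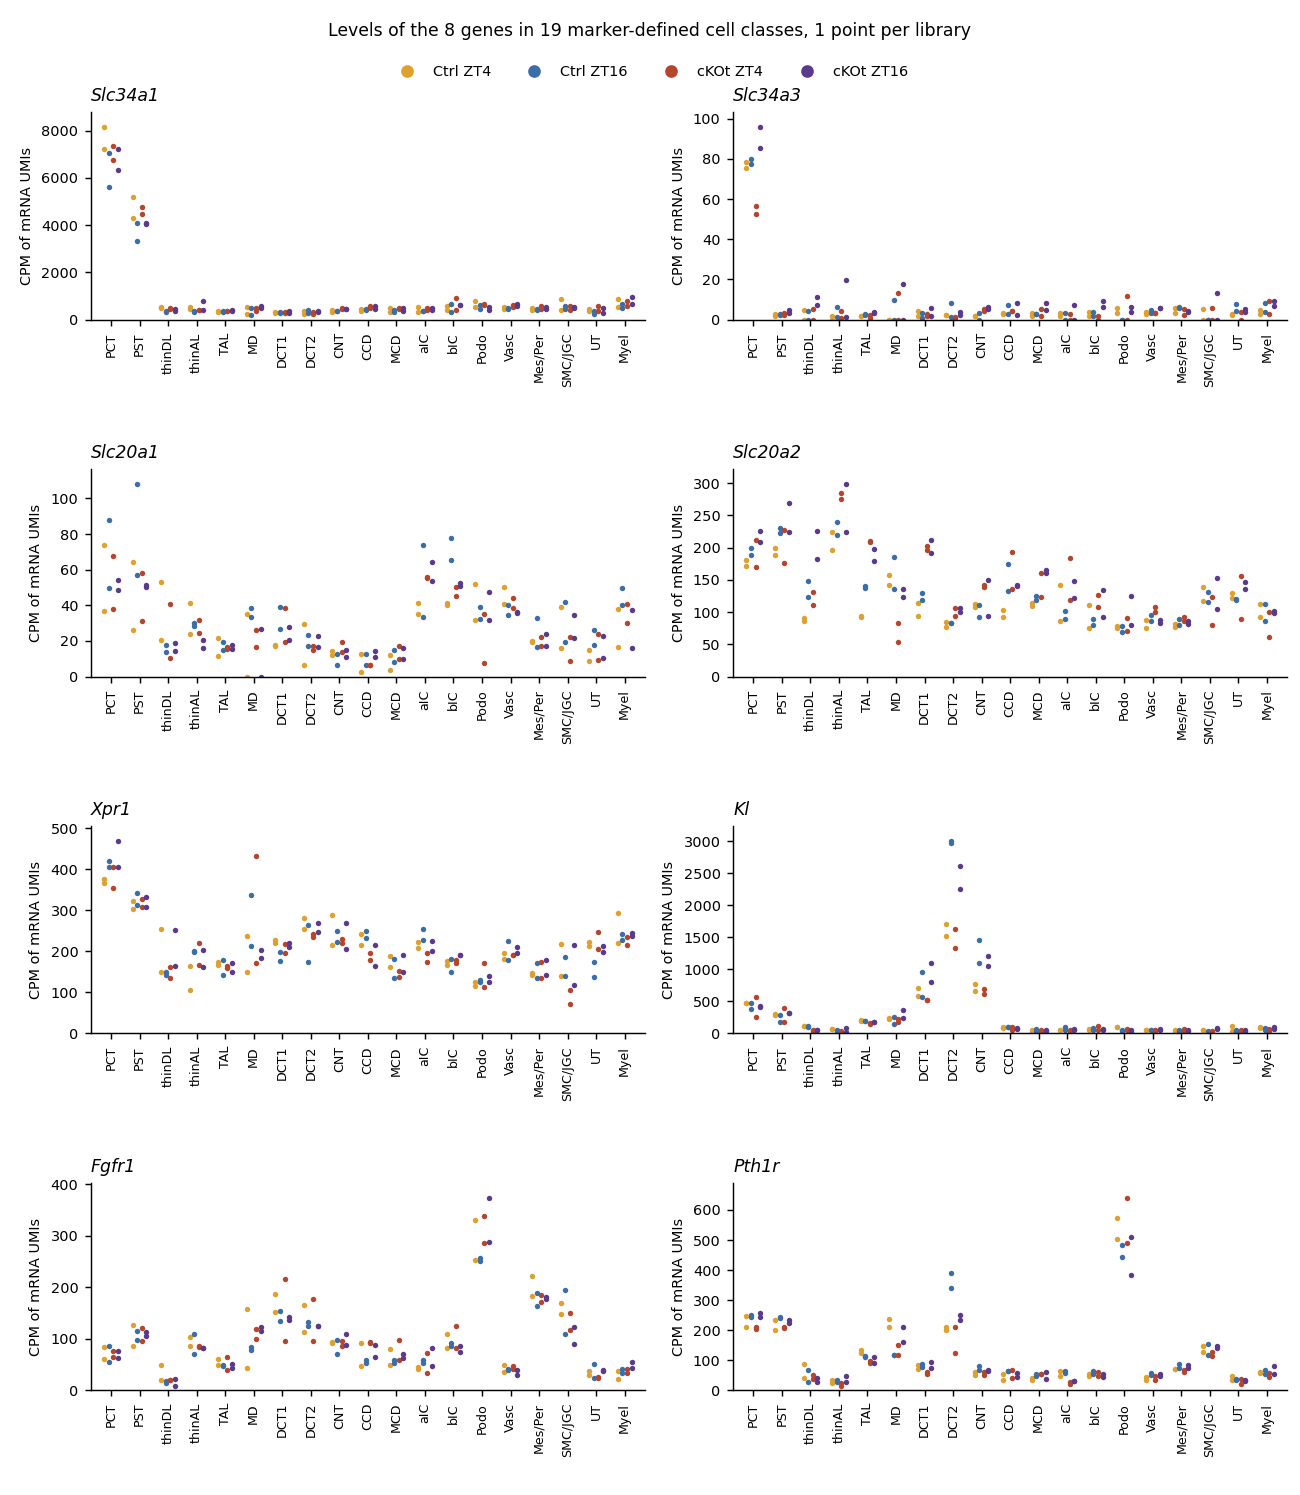
Level of each of the 8 genes (CPM of mRNA UMIs, linear axis from 0) in the 19 cell classes, with 1 point per library colored by group. Slc34a1 and Slc34a3 are highest in PCT, Kl in DCT2, and Fgfr1 and Pth1r in podocytes, while Slc20a2 and Xpr1 spread over many classes.

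The 8 genes differed in where they were highest. Slc34a1 and Slc34a3 were highest in PCT, and Xpr1 in PCT and then PST. Kl was highest in DCT2 and, at lower level, in CNT, DCT1 and the proximal tubule. Fgfr1 and Pth1r had their highest level in podocytes. These levels are a description without test, since classes and levels came from the same nuclei, and they are set side by side within a gene only, because CPM are not scaled to gene length.

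Differences between genotypes or time points were called in 3 of the 8 genes. Slc20a2 was higher in cKOt than in Ctrl in TAL and DCT1, Kl was higher at ZT16 than at ZT4 in DCT2 and CNT, and Pth1r was higher at ZT16 in DCT2. Marker genes moved in these classes too, and their part was not tested. Most calls within a single genotype or time point were lost when some single library was left out. Of 946 tests (8 genes, 19 classes and 7 contrasts, where counts allowed) 13 passed an adjusted p of 0.05, 12 toward higher and 1 toward lower level, or 1.37%, against 0.346% of the tests of all mRNAs. Of these 13, 5 were of Slc20a2, 5 of Kl and 3 of Pth1r. Between time points in Ctrl, 4 of 134 gene and class pairs passed, all toward ZT16 (background 0.34% of all mRNAs, either direction) and in cKOt 1 of 135 (background 0.136%). Between genotypes, 2 of 133 were higher in cKOt at ZT4 (background 0.281%) and 0 of 136 differed at ZT16 (background 0.147%). Averaged over time points, cKOt was higher in 2 and lower in 1 of 136 pairs (background 0.547%). Averaged over genotypes, ZT16 was higher in 3 of 136 (background 0.923%). For the interaction, whether the time difference depended on genotype, 0 of 136 passed (background 0.0272%).

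Summed over all nuclei, the edgeR test called 0 of the 8 genes in any of the 7 contrasts, and DESeq2 called 0 as well. The smallest adjusted p was 0.19, for Slc20a2 averaged over time points (log2 difference 0.33). The background there was 0.142% of mRNAs between time points in Ctrl, 0% in cKOt, 0.446% between genotypes at ZT4, 0.174% at ZT16, 0.948% and 0.544% for the averaged genotype and time contrasts and 0.0183% for the interaction. With DESeq2 it was 1.44%, 1.02%, 2.16%, 1.06%, 2.63%, 3.18% and 0.294% in the same order. At an unadjusted p under 0.05, 1 of the 8 genes, Slc34a3, passed in cKOt between time points, between genotypes at ZT16 and for the interaction, and 1, Slc20a2, passed between genotypes at ZT4 and averaged over time points, with 0 in the other two contrasts. Of all mRNAs 4.35% to 13.7% passed that limit in the 7 contrasts, so 1 of 8 genes is near the background. Slc20a2, Kl and Pth1r were thus called within segments and not in the whole kidney sum. Fewer nuclei of a class and less RNA per nucleus cannot be told apart in that sum.

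**Figure D2:**
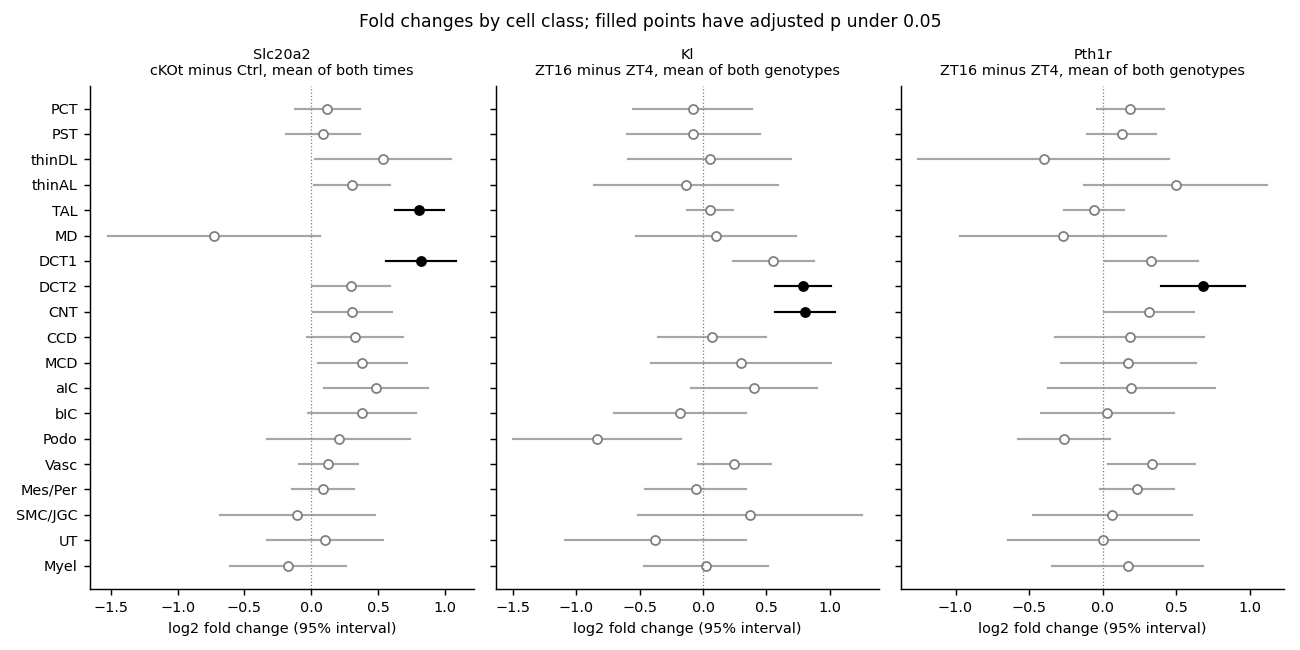
Log2 differences by class with 95% confidence intervals, of Slc20a2 between cKOt and Ctrl (mean of both time points) and of Kl and Pth1r between ZT16 and ZT4 (mean of both genotypes). Filled points, with an adjusted p under 0.05, are Slc20a2 in TAL (0.81) and DCT1 (0.82), Kl in DCT2 (0.79) and CNT (0.80), and Pth1r in DCT2 (0.68).

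Slc34a1, the main sodium-phosphate cotransporter of the brush border, reached 6959 ± 741 CPM in PCT and 4289 ± 559 in PST (SD, n = 8 libraries), and the libraries of the PCT, of the PST and of all other classes did not overlap. PCT held 51.0% and PST 38.3% of its 903332 UMIs. In the other 17 classes it lay between 305 CPM in DCT1 and 698 in Myel. Vascular cells, which should lack it, had 538 ± 76.6 CPM, and at equal depth (each nucleus thinned to 1000 UMIs) 37.5% of their nuclei held a UMI of Slc34a1, against 99.3% of PCT nuclei. Before thinning the PCT share was 100.0% and the median depths were 4771.5 UMIs in PCT and 2080 in Vasc. The level in Vasc is taken as background. Single libraries of other classes lay above its highest library (663 CPM), up to 951 in Myel and 934 in bIC. The background was not equal between genotypes. At equal depth the share of vascular nuclei with a UMI of Slc34a1 was 31.2% to 37.3% in Ctrl and 38.7% to 43.6% in cKOt. The averaged log2 difference of its level in Vasc between cKOt and Ctrl was 0.31 and did not pass (adjusted p = 0.498). The source of the level outside the proximal tubule was not tested.

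In PCT, Slc34a1 stood at 7207 and 8135 CPM in Ctrl at ZT4, 7055 and 5624 in Ctrl at ZT16, 6756 and 7337 in cKOt at ZT4, and 7207 and 6353 in cKOt at ZT16. The genotypes overlapped at both time points. The log2 difference between cKOt and Ctrl was -0.03 (95% CI -0.36 to 0.30, adjusted p = 0.982) and that between ZT16 and ZT4 was -0.17 (-0.50 to 0.16, adjusted p = 0.653). In PST the genotype difference was 0.05 (-0.33 to 0.42, adjusted p = 0.953), with a level of 4316 and 5189 CPM in Ctrl at ZT4, 4082 and 3315 in Ctrl at ZT16, 4483 and 4786 in cKOt at ZT4 and 4073 and 4065 in cKOt at ZT16. All ZT16 libraries of PST lay below all ZT4 libraries, and the averaged time difference was -0.29 (-0.67 to 0.08, adjusted p = 0.558). With 50 in place of 1000 principal components, which drew the border of PST elsewhere, the PST values were -0.95 between genotypes (adjusted p = 0.693) and -1.30 between time points (adjusted p = 0.547). No contrast of Slc34a1 passed in PCT or PST.

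Within the proximal tubule the level of Slc34a1 was uneven. PCT clusters 1 and 15 had 7098 CPM and PCT cluster 6 had 6739, PST clusters 4 and 8 had 5909, and PST cluster 9 had 776. The highest class mean outside the proximal tubule was 698, in Myel. These clusters did not take equal shares of each library: cluster 15 consisted mostly of Ctrl nuclei at ZT4, cluster 8 mostly of Ctrl nuclei and cluster 4 mostly of cKOt nuclei, so they are given only in these unions, chosen after the clusters had been seen.

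**Figure D3:**
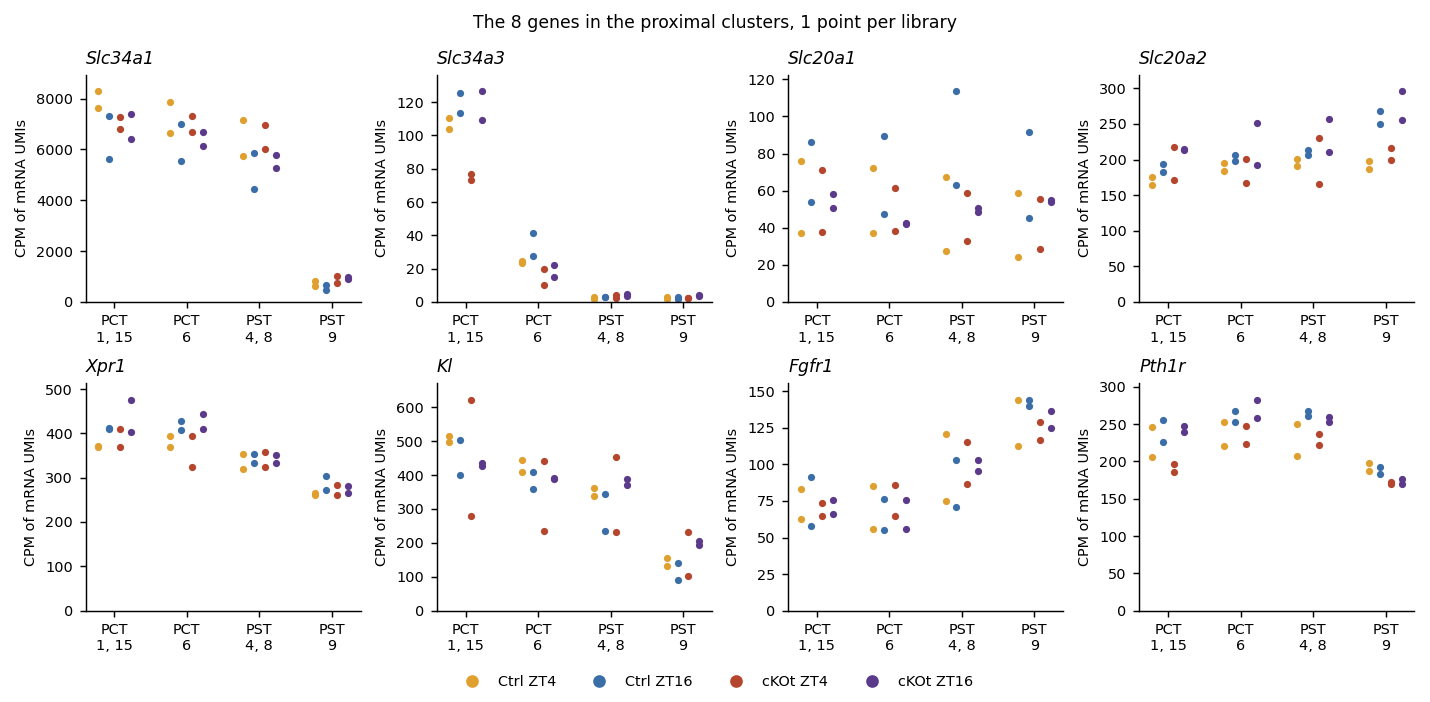
Levels (CPM of mRNA UMIs, axes from 0) of the 8 genes in 4 groups of proximal tubule clusters, with 1 point per library colored by group. Slc34a3 goes from 104.9 CPM in PCT clusters 1 and 15 to 2.7 in PST cluster 9, and Slc34a1 from 7098 to 776, whereas Slc20a1 changes little and Slc20a2 and Fgfr1 are highest on average in PST cluster 9.

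Slc34a3, the cotransporter with the narrower distribution, was measured in PCT at 75.1 ± 14.3 CPM (SD, n = 8), and every PCT library lay above every library of every other class. The next class, Myel, had 5.92 CPM and PST had 3.02. PCT held 82.3% of the 5939 UMIs. At equal depth 7.19% of PCT nuclei held a UMI, 26.1% before thinning, and 0.37% of vascular nuclei did. Within PCT the gene was concentrated in clusters 1 and 15, with 104.9 CPM against 23.1 in cluster 6. The pattern most like that of Slc34a3 over the 19 classes was that of Slc5a2, the glucose cotransporter of the early proximal tubule and itself a marker of PCT (r = 0.912 of log2 levels), followed by D630023F18Rik and Nepn.

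The PCT level of Slc34a3 was 75.3 and 78.3 CPM in Ctrl at ZT4, 77.4 and 80.1 in Ctrl at ZT16, 56.4 and 52.4 in cKOt at ZT4, and 95.7 and 85.3 in cKOt at ZT16. The Ctrl libraries lay close together, and the cKOt libraries lay below them at ZT4 and above them at ZT16. The log2 difference between time points was 0.03 in Ctrl (95% CI -0.28 to 0.34) and 0.73 in cKOt (0.42 to 1.04), and the latter missed the limit after adjustment (adjusted p = 0.159) and passed it with DESeq2 (adjusted p = 0.0452). Neither the genotype difference at ZT4, -0.52 (adjusted p = 0.186), nor the interaction, 0.70 (95% CI 0.27 to 1.14, adjusted p = 0.705), passed. The clusters of PCT did not repeat this pattern at ZT16, where the genotype difference was 0.18 in PCT as a whole (-0.13 to 0.49), -0.05 in clusters 1 and 15 (-0.38 to 0.29) and -0.89 in cluster 6 (-1.61 to -0.18, adjusted p = 0.554). The interaction was 0.49 in clusters 1 and 15 and had the opposite sign, -0.25, in cluster 6. Cluster 6, with the lower level of Slc34a3, took 45.8% and 30.9% of the PCT nuclei in Ctrl at ZT16 and 20.7% and 19.4% in cKOt at ZT16, against 31.1% and 25.5% in Ctrl and 23.0% and 34.7% in cKOt at ZT4. The number of Slc34a3 tests was limited by its counts, with 6 of 19 classes tested.

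The PiT carriers had no single site. Slc20a1 was found at 57.1 ± 18 CPM in PCT, 55.9 ± 24.8 in PST, 52.9 ± 12.8 in bIC and 51.6 ± 14.3 in aIC (SD, n = 8), down to 9.12 ± 4.03 in CCD, and neighbors in this order overlapped throughout. At equal depth 5.04% of PCT nuclei held a UMI of Slc20a1, 20.2% before thinning. No class was set as background for this gene, and 3.50% of vascular nuclei held a UMI at equal depth. When each nucleus had the same weight, bIC ranked first with 61.8 CPM. Replicates were far apart in PCT, at 74.0 and 36.9 CPM in Ctrl at ZT4, 49.5 and 87.8 in Ctrl at ZT16, 67.9 and 38.1 in cKOt at ZT4, and 48.3 and 54.4 in cKOt at ZT16. The groups overlapped, and the genotype difference was -0.26 on the log2 scale with a wide interval (-0.85 to 0.34, adjusted p = 0.902). Of 114 tests of Slc20a1 in 17 classes, 0 passed and 4 had an unadjusted p under 0.05 (6.93% of all mRNA tests in the 19 classes did), and the smallest adjusted p was 0.261, in DCT1 between time points in Ctrl.

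Promoter windows of 300 bases, 250 before and 50 after the start, were found in RefSeq (GRCm38.p6) for 6 of the 8 genes. No window was found for Slc20a2 and Fgfr1, so the promoters of these genes were not searched. The E-box CACGTG, the motif bound by BMAL1 with its partner, was present in 1 of the 9 windows of these genes, and 7.15% of all 32851 windows held it. The window belongs to Slc20a1 (chr2:129198523-129198822, plus strand) and is shown because it is the only one, with both motifs in capitals. The motif reads the same on both strands. A match describes the letters and is not a binding site.

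Slc20a1, promoter window 1: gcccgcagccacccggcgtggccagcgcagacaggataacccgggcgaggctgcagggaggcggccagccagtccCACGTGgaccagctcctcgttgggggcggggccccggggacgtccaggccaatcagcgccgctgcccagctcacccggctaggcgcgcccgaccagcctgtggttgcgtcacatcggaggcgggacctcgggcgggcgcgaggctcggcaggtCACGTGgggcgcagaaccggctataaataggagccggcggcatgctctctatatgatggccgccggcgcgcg

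Slc20a2 had UMIs in every class and differed between genotypes in TAL and DCT1. Its level was 245 ± 36.1 CPM in thinAL, 217 ± 29.1 in PST, 195 ± 20.3 in PCT, 157 ± 47.7 in DCT1 and 157 ± 48.5 in TAL (SD, n = 8), and the lowest was 83.5 ± 17.7 in Podo. Neighbors in this order overlapped. No class was set as background for this gene, and Vasc had 90.3 ± 10.3 CPM. At equal depth 16.9% of thinAL nuclei held a UMI of Slc20a2, 47.6% before thinning, and 6.97% of vascular nuclei did. Within the proximal tubule it was even, from 192 CPM in PCT clusters 1 and 15 to 234 in PST cluster 9. Genes of the most similar distribution were Rida (r = 0.862), Impa1 and 2310030G06Rik. Of 133 tests in 19 classes, 5 passed, and 20 had an unadjusted p under 0.05, against 6.93% of the tests of all mRNAs.

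In TAL, Slc20a2 stood at 91.9 and 93.8 CPM in Ctrl at ZT4, at 140 and 137 in Ctrl at ZT16, at 210 and 208 in cKOt at ZT4 and at 198 and 179 in cKOt at ZT16. Replicates were close, and the lowest cKOt library lay above the highest Ctrl library. The level was lowest in Ctrl in the light phase. At ZT4 the log2 difference between cKOt and Ctrl was 1.17 (SE 0.12, adjusted p = 0.000124), where 0.519% of mRNAs of TAL passed. Averaged over time points it was 0.81 (SE 0.09, adjusted p = 9.78e-05, background 0.891%). At ZT16 it was 0.45 and did not pass (SE 0.12, adjusted p = 0.268, background 0.154%). Both calls held in all 15 alternatives, each library left out included, with adjusted p of at most 0.00538 at ZT4 and 0.00145 on average.

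Between time points, Slc20a2 in TAL of Ctrl was higher at ZT16 by 0.56 (SE 0.12, adjusted p = 0.0386, background 1.19%), a call that was lost when any of the 4 Ctrl libraries or either cKOt library of ZT16 was left out (adjusted p up to 0.247). In cKOt the difference was -0.15 (95% CI -0.41 to 0.10, adjusted p = 0.731). The difference between these time effects, the interaction, was -0.71 (95% CI -1.08 to -0.35) and did not pass over all mRNAs (adjusted p = 0.649).

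The share of TAL nuclei with a UMI of Slc20a2 also separated the genotypes at equal depth. It was 6.81% and 7.79% in Ctrl at ZT4, 10.5% and 9.84% in Ctrl at ZT16, 14.5% and 14.7% in cKOt at ZT4 and 15.6% and 14.8% in cKOt at ZT16. The cKOt libraries were again all above the Ctrl libraries, while the cKOt libraries of ZT16 lay above those of ZT4, the reverse of their order in CPM. In Vasc, where the transgenes do not act by design, the share lay between 4.91% and 8.24% over the 8 libraries. Before thinning the TAL shares ran from 20.1% to 50.5%, with median depths of 2985 to 4903.5 UMIs.

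Both clusters that made up TAL, examined separately after this result was known, had the genotype difference at ZT4, 1.23 in cluster 2 (adjusted p = 9.33e-05) and 1.03 in cluster 7 (adjusted p = 0.00347). The time difference in Ctrl passed in cluster 2 (0.63, adjusted p = 0.0409) and not in cluster 7 (0.43, adjusted p = 0.295). The summed level of 6 PCT markers in TAL was 255 to 344 CPM in Ctrl and 305 to 347 in cKOt, and that of 6 TAL markers 35051 to 41194 in Ctrl and 32498 to 37768 in cKOt, so both sums overlapped between genotypes. By itself Umod, a TAL marker, was lower in every cKOt library, 1679 to 2372 CPM against 2827 to 3763 in Ctrl. So was the PCT marker Slc16a9, 13.3 to 18.9 against 19.8 to 24.5, while the DCT marker Trpm6 was higher, 14.9 to 18.7 against 11.6 to 14.6. At ZT4, where a call was made, the vascular marker sum in TAL was 91.9 and 98.8 CPM in Ctrl and 113 and 115 in cKOt. The aIC marker sum was 22.2 and 24.5, then 12.05 and 21.5. The part of these shifts in the genotype difference was not tested. The sum of the 4 DCT1 markers in TAL, nearly all of it Egf, was 9002 to 10164 CPM at ZT4 and 5807 to 6868 at ZT16, while those of the vascular markers (91.9 to 115 CPM at ZT4, 124 to 167 at ZT16) and of the Mes/Per markers (67.4 to 79.6 and 80.6 to 93.9) were higher at ZT16. Within Ctrl, where the time call was made, the sums of PCT markers (325 and 344 CPM at ZT4, 255 and 256 at ZT16) and TAL markers (36891 and 41194, then 35051 and 36456) were lower at ZT16, and those of DCT2 markers (398 and 358, then 467 and 483) and CNT markers (311 and 304, then 381 and 490) were higher. Egf is in both the TAL and the DCT1 list. Of the TAL markers, Egf (10047.5 and 9930 CPM, then 5980 and 6786) and Tmem207 (475 and 505, then 440 and 420) were lower at ZT16 in Ctrl. Umod (2827 and 2957, then 3763 and 3743) and Ptger3 (1020 and 1438, then 1531 and 1538) were higher, while Slc12a1 and Slc5a3 overlapped. The part of these shifts in the time difference was not tested.

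**Figure D4:**
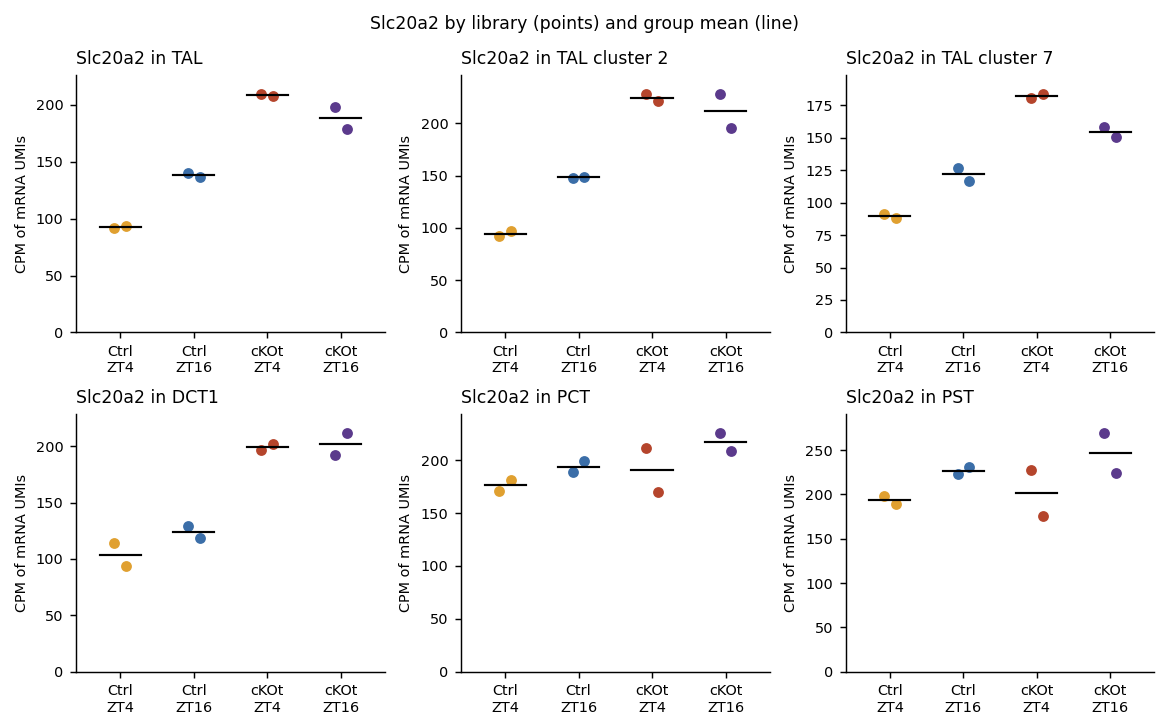
Slc20a2 (CPM of mRNA UMIs, axis from 0) by group in TAL, both TAL clusters, DCT1, PCT and PST; points are libraries and lines are means of 2 libraries. In TAL and DCT1 all cKOt points lie above all Ctrl points, and in PCT and PST the genotypes overlap.

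In DCT1, Slc20a2 stood at 114 and 93.6 CPM in Ctrl at ZT4, 129 and 119 in Ctrl at ZT16, 196 and 202 in cKOt at ZT4, and 192 and 212 in cKOt at ZT16. All cKOt libraries exceeded all Ctrl libraries, as in TAL. The log2 difference was 0.95 at ZT4 (SE 0.18, adjusted p = 0.0184, background 0.306%), 0.69 at ZT16 (SE 0.18, adjusted p = 0.223, background 0.185%) and 0.82 on average (SE 0.13, adjusted p = 0.00152, background 0.545%). The average held in all 15 alternatives, while the call at ZT4 was lost when any of the 4 ZT4 libraries was left out (adjusted p up to 0.451). With DCT1 and DCT2 pooled, an alternative chosen after seeing the data, the difference was 0.71 at ZT4 (adjusted p = 0.0703) and 0.63 on average (adjusted p = 0.00607). In DCT1 the sums of the TAL, DCT1, DCT2, CNT and PCT markers overlapped between genotypes, and of these markers Umod alone was apart, with 524 to 769 CPM in Ctrl and 156 to 399 in cKOt. The sum of the 5 aIC markers in DCT1 was low and did not overlap, at 10.9 to 14.2 CPM in Ctrl and 15.8 to 22.1 in cKOt. At ZT4 the vascular sum in DCT1 was 47.8 and 92.3 CPM in Ctrl and 99.6 and 120 in cKOt. The Mes/Per sum was 46.1 and 48.4, then 37.6 and 40.2. The part of these shifts was not tested.

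Elsewhere along the tubule Slc20a2 did not pass between genotypes, although most differences had the same direction. The averaged difference was 0.54 in thinDL (95% CI 0.03 to 1.04, adjusted p = 0.557), 0.48 in aIC (0.10 to 0.87, adjusted p = 0.419), 0.38 in MCD (0.05 to 0.71), 0.38 in bIC (-0.02 to 0.78) and 0.33 in CCD (-0.03 to 0.69), and in CCD at ZT4 it was 0.75 (0.23 to 1.28, adjusted p = 0.453). It was 0.30 in DCT2 (95% CI 0.01 to 0.59, adjusted p = 0.659), 0.31 in CNT (0.01 to 0.60, adjusted p = 0.544), 0.30 in thinAL (0.02 to 0.58, adjusted p = 0.629), 0.12 in PCT (-0.13 to 0.37, adjusted p = 0.877) and 0.09 in PST (-0.19 to 0.36, adjusted p = 0.858). In MD it was -0.73 (-1.52 to 0.07). Whether TAL and DCT1 differ in this respect from the other segments was not tested. In PCT the level was 171 and 181 CPM in Ctrl at ZT4, 189 and 199 in Ctrl at ZT16, 212 and 170 in cKOt at ZT4 and 226 and 209 in cKOt at ZT16, with overlap between genotypes.

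Xpr1, through which cells release phosphate, was highest in PCT with 401 ± 35.6 CPM and second in PST with 320 ± 13.6 (SD, n = 8), and neither overlapped with the class below it. MD, with few UMIs and 150 to 433 CPM, overlapped with both. From DCT2 with 246 ± 32.6 down to Podo with 131 ± 18.5, neighboring classes overlapped. At equal depth 26.5% of PCT nuclei held a UMI, 70.9% before thinning, and 15.1% of vascular nuclei did, though no class was set as background. Xpr1 was even between groups in PST, where the 8 libraries lay between 304 and 341 CPM. In PCT the level was 367 and 378 CPM in Ctrl at ZT4, 405 and 420 in Ctrl at ZT16, 354 and 406 in cKOt at ZT4, and 407 and 468 in cKOt at ZT16. ZT16 libraries were at the upper end in each genotype, but the log2 difference of 0.17 (95% CI -0.07 to 0.41) did not pass (adjusted p = 0.515). Of 133 tests of Xpr1 0 passed, 2 had an unadjusted p under 0.05 (6.93% of all mRNA tests), and the genotype differences were 0.04 in PCT (-0.20 to 0.28) and -0.01 in PST (-0.25 to 0.23). Plekhb2 (r = 0.843), Thoc7 and Dnase1 had the distribution most like it.

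Kl encodes klotho, which gives FGF receptors their affinity for FGF23. Its level was 2127 ± 668 CPM in DCT2, 947 ± 305 in CNT, 718 ± 218 in DCT1, 433 ± 88.5 in PCT, 283 ± 70.1 in PST, 233 ± 65.1 in MD and 183 ± 17.6 in TAL (SD, n = 8). These 7 classes overlapped from neighbor to neighbor, and all TAL libraries lay above those of the next class, CCD with 88.9 ± 18. Vascular cells had 54.2 ± 9.19 CPM. At equal depth 72.8% of DCT2 nuclei held a UMI of Kl and 4.68% of vascular nuclei did. Before thinning the DCT2 share was 95.4%, at a median of 4858 UMIs per nucleus. Of all 97707 UMIs of Kl, 28.4% came from PCT, 23.2% from PST and 16.9% from DCT2, which made up 2.14% of nuclei. In the proximal tubule it went from 461 CPM in PCT clusters 1 and 15 to 156 in PST cluster 9.

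The genes most like Kl over the 19 classes were Cpt1a (r = 0.866), Vdr, the vitamin D receptor (r = 0.857), and Emx1. The correlations are over classes that share libraries and depth, and are a description.

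Kl and Pth1r were each called between time points in DCT2, averaged over genotypes, as described next. Whether their changes are linked was not tested. The promoter windows of both genes from RefSeq (GRCm38.p6) are printed here. Capitals mark CANNTG, the general E-box, which 72.3% of all windows held. CACGTG was in none of them. The Kl window is at chr5:150952357-150952656 on the plus strand. The 3 Pth1r windows are at chr9:110747096-110747395, chr9:110743637-110743936 and chr9:110742561-110742860 on the minus strand. Kl had 1 such motif, and the Pth1r windows had 1, 0 and 1.

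Kl, promoter window: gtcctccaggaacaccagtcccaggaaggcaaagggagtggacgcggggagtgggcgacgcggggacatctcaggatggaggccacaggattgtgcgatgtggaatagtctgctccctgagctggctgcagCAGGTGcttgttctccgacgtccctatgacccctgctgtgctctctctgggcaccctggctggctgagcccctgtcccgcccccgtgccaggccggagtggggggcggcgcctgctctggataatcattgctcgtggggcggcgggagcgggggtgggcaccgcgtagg

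Pth1r, promoter window 1: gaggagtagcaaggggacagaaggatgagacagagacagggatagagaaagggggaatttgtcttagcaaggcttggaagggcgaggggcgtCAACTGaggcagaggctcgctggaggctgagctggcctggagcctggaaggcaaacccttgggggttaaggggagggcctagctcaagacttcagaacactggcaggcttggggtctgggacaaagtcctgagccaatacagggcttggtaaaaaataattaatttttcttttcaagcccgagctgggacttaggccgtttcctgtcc

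Pth1r, promoter window 2: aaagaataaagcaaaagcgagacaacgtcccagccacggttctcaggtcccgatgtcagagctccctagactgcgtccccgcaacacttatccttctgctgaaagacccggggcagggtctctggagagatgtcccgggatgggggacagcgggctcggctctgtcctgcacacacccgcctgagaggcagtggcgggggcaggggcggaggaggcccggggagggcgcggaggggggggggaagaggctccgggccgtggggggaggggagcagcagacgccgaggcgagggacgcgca

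Pth1r, promoter window 3: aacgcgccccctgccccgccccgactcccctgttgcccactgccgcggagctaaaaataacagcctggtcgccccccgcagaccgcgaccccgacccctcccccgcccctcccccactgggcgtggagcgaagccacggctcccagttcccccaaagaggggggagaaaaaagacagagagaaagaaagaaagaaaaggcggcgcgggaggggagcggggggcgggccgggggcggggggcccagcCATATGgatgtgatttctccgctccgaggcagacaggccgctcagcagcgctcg

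In DCT2 the level of Kl was 1520 and 1706 CPM in Ctrl at ZT4, 2964 and 2998 in Ctrl at ZT16, 1339 and 1625 in cKOt at ZT4, and 2611 and 2249 in cKOt at ZT16. All ZT16 libraries lay above all ZT4 libraries, in both genotypes. ZT16 exceeded ZT4 by 0.88 on the log2 scale in Ctrl (SE 0.15, adjusted p = 0.00518, background 0.616%). In cKOt the difference was 0.70 (SE 0.15) and lay just beyond the limit (adjusted p = 0.051, background 0.174%), and it passed under 5 of 15 alternatives. Averaged over genotypes it was 0.79 (SE 0.11, adjusted p = 0.00016, background 1.9%), a call kept in all 15 alternatives. The call in Ctrl was lost without replicate 1 of Ctrl ZT4 (adjusted p = 0.105). The interaction was -0.18 (95% CI -0.61 to 0.26, adjusted p = 1), and the genotype difference -0.22 on average (-0.44 to -0.01, adjusted p = 0.661).

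The share of DCT2 nuclei with a UMI of Kl, at equal depth, was 64.3% and 67.3% in Ctrl at ZT4, 86.2% and 83.0% in Ctrl at ZT16, 65.7% and 58.5% in cKOt at ZT4, and 79.1% and 76.5% in cKOt at ZT16. The time points did not overlap. Vascular nuclei had 3.36% to 6.67% in the same libraries. DCT2 held 168 to 290 nuclei per library, at median depths of 3907 to 6762.5 UMIs.

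In CNT the level of Kl was 778 and 655 CPM in Ctrl at ZT4, 1462 and 1100 in Ctrl at ZT16, 701 and 619 in cKOt at ZT4 and 1212 and 1051 in cKOt at ZT16. Here too every ZT16 library lay above every ZT4 library. The log2 difference was 0.83 in Ctrl (SE 0.16, adjusted p = 0.0175, background 0.334%), 0.77 in cKOt (SE 0.16, adjusted p = 0.0368, background 0.31%) and 0.80 on average (SE 0.11, adjusted p = 0.000468, background 1.17%). The average held in all 15 alternatives. The Ctrl call was lost without replicate 2 of Ctrl ZT4 or replicate 1 of Ctrl ZT16 (adjusted p up to 0.248) and the cKOt call without any 1 of the 4 cKOt libraries (adjusted p up to 0.534).

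Marker genes moved with the time of day in DCT2. The sum of the 7 CNT markers was 77524 to 93411 CPM at ZT4 and 95391 to 129483 at ZT16, and that of the 6 DCT2 markers 90893 to 107012 and 109189 to 142721. That of the 4 DCT1 markers was lower, 14885 to 15730 CPM at ZT4 and 12389 to 14808 at ZT16, and of these Egf was lower in every ZT16 library. Of the DCT2 and CNT markers 1, Slc8a1, the sodium-calcium exchanger, made up most of both sums and was by itself higher in every ZT16 library. The other DCT2 and CNT markers overlapped between time points over both genotypes together. Calb1 was higher at ZT16 within Ctrl (3307 and 2869 CPM, then 3433 and 4583) and within cKOt (1849 and 2144, then 2804 and 2688). Within Ctrl Trpm6, Aqp2 and Hsd11b2 (55.7 and 75.1, then 185 and 111) were also higher and Slc12a3 was lower. Within cKOt Scnn1g (227 and 261, then 322 and 380) was higher, and Trpm6 and Aqp2 were lower. Among the 6 PCT markers Slc5a2 was higher in every ZT16 library of DCT2, 24.8 to 43.9 CPM against 13.6 to 23.8. Within each genotype the Mes/Per marker sum of DCT2 was higher at ZT16, at 81.2 and 72.03 CPM after 45.5 and 57.6 in Ctrl and at 47.9 and 77.0 after 22.9 and 27.4 in cKOt, and within Ctrl the vascular sum was 70.5 and 73.9 at ZT4 and 148 and 106 at ZT16. Within cKOt the PCT sum of DCT2 was higher at ZT16 (335 and 422, then 466 and 438) and the PST sum lower (384 and 447, then 373 and 352). In CNT the CNT marker sum was 15496 to 29948 CPM at ZT4 and 30327 to 44347 at ZT16. Over both genotypes together 0 of 7 markers were apart by themselves. Within cKOt Calb1 (412 and 446 CPM, then 1157 and 1126) and Slc8a1 (23049 and 12190.5, then 37506 and 40337) were higher at ZT16. So were Scnn1g and Scnn1b there, while Aqp2 (548 and 424, then 367 and 372) was lower and Trpv5 and Hsd11b2 overlapped. Within Ctrl Hsd11b2 was higher at ZT16 (459 and 640, then 877 and 744) and the other CNT markers overlapped. The PCT marker Slc6a19 was lower in every ZT16 library of CNT, 8.60 to 13.4 CPM against 22.2 to 32.2. It was so in TAL too, 7.74 to 15.04 against 15.5 to 22.0. The PCT marker Slc7a8 in CNT was higher at ZT16 within Ctrl (144 and 119, then 185 and 173) and within cKOt (167 and 205, then 255 and 230). The sum of the 6 PCT markers in CNT overlapped, at 359 to 490 CPM at ZT4 and 370 to 512 at ZT16. Within Ctrl the vascular sum (136 and 87.0 CPM at ZT4, 178 and 172 at ZT16) and the TAL sum (1161 and 1025, then 2058 and 1413) of CNT were higher at ZT16. Within cKOt the DCT1 sum (346 and 366, then 606 and 638), the DCT2 sum (24267 and 13629, then 39960 and 42747) and the Mes/Per sum (53.5 and 45.3, then 76.7 and 78.2) were. So was the aIC sum of CNT within cKOt (13.9 and 14.5, then 20.4 and 24.2). The part of these shifts in the Kl difference was not tested.

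In DCT1, Kl stood at 578 and 715 CPM in Ctrl at ZT4, 564 and 955 in Ctrl at ZT16, 517 and 515 in cKOt at ZT4, and 1098 and 804 in cKOt at ZT16. The time points separated in cKOt and overlapped in Ctrl. The log2 difference was 0.24 in Ctrl (adjusted p = 0.697), 0.87 in cKOt (adjusted p = 0.137) and 0.55 on average (95% CI 0.23 to 0.87, adjusted p = 0.0654, where 2.05% of mRNAs of DCT1 passed), and the interaction of 0.63 did not pass (-0.01 to 1.27, adjusted p = 1). With DCT1, DCT2 and CNT joined, chosen after seeing the data, the averaged difference was 0.77 (adjusted p = 0.0003).

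In the proximal tubule and TAL no time difference of Kl was detected. Its PCT level was 471 and 480 CPM in Ctrl at ZT4, 374 and 469 in Ctrl at ZT16, 565 and 263 in cKOt at ZT4 and 418 and 426 in cKOt at ZT16, and the cKOt libraries of ZT4 enclosed all others. The averaged time difference was -0.08 in PCT (95% CI -0.55 to 0.39, adjusted p = 0.901), -0.08 in PST (-0.60 to 0.45, adjusted p = 0.933) and 0.05 in TAL (-0.13 to 0.23, adjusted p = 0.809). In TAL, Kl was 204 and 194 CPM in Ctrl at ZT4, 194 and 200 in Ctrl at ZT16, 166 and 155 in cKOt at ZT4 and 171 and 182 in cKOt at ZT16. All cKOt libraries were below all Ctrl libraries there, by -0.23 (SE 0.09), which did not pass (adjusted p = 0.377).

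**Figure D5:**
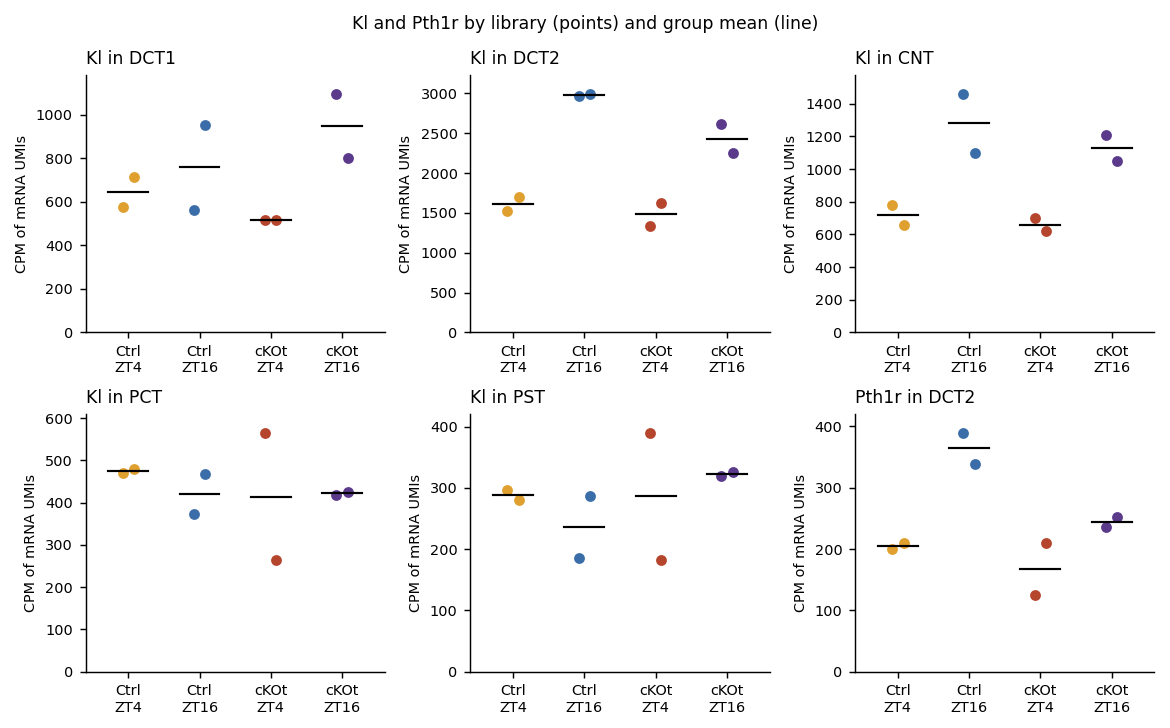
Kl in DCT1, DCT2, CNT, PCT and PST and Pth1r in DCT2 (CPM of mRNA UMIs, axes from 0) by group; points are libraries and lines are means of 2 libraries. Kl in DCT2 and CNT is higher at ZT16 in both genotypes, Pth1r in DCT2 is highest in Ctrl at ZT16, and Kl in PCT and PST overlaps between groups.

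Fgfr1, the FGF receptor taken to pair with klotho, was highest outside the tubule. It stood at 297 ± 45.3 CPM in Podo, with all libraries above those of Mes/Per (184 ± 17.5), followed by DCT1 (152 ± 35.8), SMC/JGC (138 ± 34.3), DCT2 (132 ± 26.2) and PST (107 ± 13.8), down to thinDL with 21.3 ± 11.9 (SD, n = 8). From Mes/Per downward neighbors overlapped. At equal depth 22.0% of Podo nuclei held a UMI, 57.5% before thinning, against 3.10% in Vasc and 2.62% in Myel. DCT2, the class with most Kl, thus had Fgfr1 above that background. In the proximal tubule Fgfr1 ran opposite to Kl, from 71.9 CPM in PCT clusters 1 and 15 to 131 in PST cluster 9. Angptl2 (r = 0.791), Dach1 and Mindy3 had the most similar distribution.

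Of 126 tests of Fgfr1 in 18 classes, 0 passed, 1 had an unadjusted p under 0.05 (6.93% of all mRNA tests), and the smallest adjusted p was 0.596. In DCT2, where Kl changed with time, the averaged time difference of Fgfr1 was -0.14 (95% CI -0.47 to 0.19, adjusted p = 0.766) and the genotype difference -0.05 (-0.39 to 0.28). In Podo the level was 330 and 253 CPM in Ctrl at ZT4, 251 and 256 in Ctrl at ZT16, 337 and 286 in cKOt at ZT4 and 373 and 288 in cKOt at ZT16. The genotypes overlapped at ZT4 and not at ZT16, and the difference at ZT16 was 0.31 (-0.18 to 0.81, adjusted p = 0.965).

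Pth1r, the receptor of parathyroid hormone, had its highest level in Podo, 503 ± 77.5 CPM, followed by DCT2 with 245 ± 83.5, PCT with 234 ± 21.4, PST with 224 ± 15.8, MD with 165 ± 48.5, SMC/JGC with 135 ± 14.2 and TAL with 109 ± 15.5 (SD, n = 8). Neighbors in this order overlapped, down to thinAL with 30.1 ± 10. At equal depth 37.1% of Podo nuclei held a UMI of Pth1r, 77.5% before thinning, against 4.30% of vascular nuclei. By UMIs the gene was mainly proximal, with 31.8% in PCT and 37.8% in PST. Myl3 (r = 0.844), Fam184a and Trabd2b were most like it.

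In DCT2 the level of Pth1r was 200 and 209 CPM in Ctrl at ZT4, 389 and 339 in Ctrl at ZT16, 125 and 209 in cKOt at ZT4, and 236 and 252 in cKOt at ZT16. All ZT16 libraries lay above all ZT4 libraries, and the Ctrl libraries of ZT16 were the highest. The averaged time difference was 0.68 on the log2 scale (SE 0.14, adjusted p = 0.00863). It was called in all 15 alternatives, where it ranged from 0.51 to 0.90, though only just within the limit in the weakest. In Ctrl it was 0.82 (SE 0.19) and close to the limit (adjusted p = 0.0489), and the call was lost with DESeq2, with its size factors, with all genes in the adjustment, or without any 1 of the 4 Ctrl libraries, and also with DCT1 and DCT2 pooled (0.69, adjusted p = 0.0635). In cKOt it was 0.54 (SE 0.20, adjusted p = 0.387). The interaction was -0.28 (95% CI -0.85 to 0.29, adjusted p = 1) and the averaged genotype difference -0.46 (-0.74 to -0.17, adjusted p = 0.263). At equal depth the share of DCT2 nuclei with a UMI of Pth1r was 14.7% and 14.9% in Ctrl at ZT4, 23.1% and 21.4% in Ctrl at ZT16, 10.5% and 14.04% in cKOt at ZT4, and 19.8% and 20.1% in cKOt at ZT16, so time points did not overlap. The marker shift of DCT2 given for Kl applies here too, and its part was not tested.

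In PCT, a main site of parathyroid hormone action on phosphate, Pth1r was 211 and 248 CPM in Ctrl at ZT4, 251 and 243 in Ctrl at ZT16, 204 and 211 in cKOt at ZT4 and 246 and 257 in cKOt at ZT16. The time points separated in cKOt and overlapped in Ctrl. The averaged time difference of 0.19 (95% CI -0.04 to 0.42) did not pass (adjusted p = 0.435), nor did the genotype difference of -0.08 (-0.31 to 0.15, adjusted p = 0.927). In TAL the cKOt libraries, with 97.9 and 89.5 CPM at ZT4 and 91.4 and 110 at ZT16, lay below the Ctrl libraries, with 134 and 124 at ZT4 and 110 and 114 at ZT16. The highest cKOt and lowest Ctrl value almost met, and the averaged difference of -0.31 (SE 0.10) did not pass (adjusted p = 0.238). In Podo the averaged differences were -0.05 between genotypes (-0.36 to 0.27) and -0.26 between time points (-0.58 to 0.05).

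The 1 call toward lower level was Pth1r in aIC. It stood at 47.6 and 64.5 CPM in Ctrl at ZT4, 58.2 and 65.1 in Ctrl at ZT16, 26.7 and 22.7 in cKOt at ZT4 and 31.1 and 30.3 in cKOt at ZT16, from 9 to 36 UMIs per library. The log2 difference between cKOt and Ctrl was -1.10 (SE 0.27, adjusted p = 0.0413, background 0.803%), and it was lost in 10 of 15 alternatives. Vascular cells had 34.7 to 56.8 CPM of Pth1r. The Ctrl ZT4 library of aIC with 47.6 CPM lay within that range, the other Ctrl libraries above it and all cKOt libraries below it.

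The other genes of the pathway were taken from 8 lists with 56 genes. Over the 19 classes and 7 contrasts 16 of 5294 tests passed, 4 toward higher and 12 toward lower level, which was 0.302% against the 0.346% of all mRNAs. These calls came from 7 genes, and Vdr was called once more over all nuclei. Of the ligand and receptor side, the list of FGF23-klotho signalling and klotho shedding had 2 higher and 3 lower calls in 1629 tests, PTH signalling 0 in 1005, and FGF23 processing 0 in 392. The list of XPR1's partner and the inositol pyrophosphate kinases, which make the signal XPR1 senses, had 0 in 662. The apical scaffold that holds the NaPi-II proteins in the brush border had 1 higher call in 472 and the other phosphate and anion carriers 2 lower calls in 456. Pyrophosphate handling had 6 lower calls in 357 and the vitamin D enzymes and receptor 1 higher and 1 lower in 321.

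The pyrophosphate calls were of Enpp1, which makes extracellular pyrophosphate, and Ank, which exports it. In PST, Enpp1 was 39.6 and 42.0 CPM in Ctrl at ZT4, 32.5 and 27.4 in Ctrl at ZT16, 13.6 and 15.5 in cKOt at ZT4, and 12.0 and 14.6 in cKOt at ZT16. Every cKOt library was below every Ctrl library. The log2 difference was -1.49 at ZT4 (SE 0.18, adjusted p = 0.00823, background 0.627%), -1.18 at ZT16 (SE 0.18, adjusted p = 0.0307, background 0.497%) and -1.34 on average (SE 0.13, adjusted p = 0.00125, background 1.66%). In PCT, Enpp1 was 68.3 and 76.4 CPM in Ctrl at ZT4, 59.0 and 50.3 in Ctrl at ZT16, 35.6 and 39.9 in cKOt at ZT4 and 36.4 and 43.5 in cKOt at ZT16, again without overlap. The difference there was -0.96 at ZT4 (adjusted p = 0.0322, background 0.776%) and -0.72 on average (adjusted p = 0.0182, background 1.22%). In PST the sum of the 6 Mes/Per markers was also lower in every cKOt library, 39.1 to 53.2 CPM against 55.4 to 82.9 in Ctrl. In PST at ZT16 the TAL sum (560 and 568 CPM in Ctrl, 578 and 706 in cKOt) and the DCT1 sum (186 and 209, then 216 and 280) were higher in cKOt. At ZT4 the aIC sum was (13.6 and 10.2, then 15.97 and 14.1). The marker shifts of PCT between genotypes at ZT4, given below, apply to Enpp1 too. The part of these marker shifts was not tested. Ank in PST was 14.2 to 21.6 CPM in Ctrl and 8.3 to 11.7 in cKOt, a difference of -0.90 (SE 0.16, adjusted p = 0.0316) that was lost in 9 of 15 alternatives. The averaged Enpp1 call in PST held with each library left out (adjusted p of at most 0.01) and missed the limit with 50 principal components (adjusted p = 0.0881), and the other Enpp1 calls were lost without at least 1 library (adjusted p up to 0.271). With 50 principal components those in PST were lost at ZT4 (adjusted p = 0.395) and at ZT16 (adjusted p = 0.405).

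Slc17a4, an organic anion and phosphate carrier, was lower at ZT16 in PCT. Its level was 18.1 and 26.7 CPM in Ctrl at ZT4, 5.2 and 2.6 in Ctrl at ZT16, 17.2 and 35.9 in cKOt at ZT4, and 9.0 and 11.6 in cKOt at ZT16. Time points did not overlap, and the difference was -2.46 in Ctrl (SE 0.43, adjusted p = 0.0418, background 0.602%) and -1.91 on average (SE 0.28, adjusted p = 0.0159, background 1.28%). Vdr, the vitamin D receptor, was 219 and 256 CPM in PCT of Ctrl at ZT4, 256 and 342 in Ctrl at ZT16, 520 and 445 in cKOt at ZT4 and 309 and 282 in cKOt at ZT16. It was higher in cKOt at ZT4 by 1.00 (SE 0.19, adjusted p = 0.0468) and the genotypes overlapped at ZT16. Over all nuclei Vdr was higher in cKOt by 0.42 on average (adjusted p = 0.0474), and in TAL it was lower at ZT16, with a difference of -0.45 (adjusted p = 0.0284, background 3.5%). Markers moved beside these PCT calls, and their part was not tested. The sum of the 6 PCT markers in PCT was 7412 and 8906 CPM in Ctrl at ZT4, 4915 and 5745 in Ctrl at ZT16 and 6700 and 7118 in cKOt at ZT4. At ZT4 the sums of DCT2 markers (306 and 273 CPM in Ctrl, 536 and 311 in cKOt) and CNT markers (260 and 202, then 463 and 290) in PCT were higher in cKOt, as Vdr was. That of the 6 PST markers in Ctrl was 1622 and 2151 at ZT4 and 1339 and 1116 at ZT16, and that of the vascular markers was 49.5 to 57.2 at ZT4 and 57.8 to 77.0 at ZT16 over both genotypes. Within Ctrl the TAL sum (359 and 481 CPM, then 533 and 593), the DCT2 sum (306 and 273, then 323 and 630) and the CNT sum (260 and 202, then 294 and 604) in PCT were higher at ZT16. The calls of Slc17a4 and Vdr depended on single libraries, with adjusted p of up to 0.255 for Slc17a4 and 0.294 for Vdr when 1 was left out. Slc17a4 in Ctrl was also lost with 50 principal components (adjusted p = 0.0619), and it was -3.03 in PCT clusters 1 and 15 (adjusted p = 0.0198) and -1.50 in cluster 6 (adjusted p = 0.32). Vdr at ZT4 was 1.204 (adjusted p = 0.0529) and 0.66 (adjusted p = 0.289) in the same clusters.

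The remaining calls were of signalling genes, mostly outside the tubule. Sgk1, a kinase reported downstream of FGF23 and of mineralocorticoids, was lower at ZT16 in CNT, with a difference of -0.93 (SE 0.22, adjusted p = 0.0332) and higher at ZT16 in Vasc by 0.74 (SE 0.10, adjusted p = 0.00206, background 1.75%), with 0.85 in cKOt alone (adjusted p = 0.034, background 0.196%). Egr1, an immediate early gene used as a readout of FGF23 signalling, was lower at ZT16 in Vasc, with a difference of -1.18 on average (SE 0.20, adjusted p = 0.00882) and -1.47 in Ctrl (adjusted p = 0.0375, background 0.49%). Slc9a3r2, which encodes the scaffold NHERF2, was higher at ZT16 in Vasc by 0.51 (SE 0.08, adjusted p = 0.00633). Of these calls that of Sgk1 in Vasc, averaged over genotypes, held in all 15 alternatives, and the others were lost without at least 1 library (adjusted p up to 0.361). Sgk1 in CNT was also lost with DESeq2 (adjusted p = 0.75), with 50 principal components (-0.65, adjusted p = 0.105) and with DCT1, DCT2 and CNT joined (-0.59, adjusted p = 0.091).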

How the data were processed

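The 8 libraries were made from frozen kidneys, 1 mouse each, by sorting nuclei on DAPI and 10x 3′ chemistry. The authors demultiplexed reads with bcl2fastq 2.20, aligned and counted them with Cell Ranger 7.1.0 and deposited unnormalized UMI counts for the called barcodes. The treatment of intronic reads was not stated in what was used here. The methods name mm10 and the labels GRCm39, so genes were matched by identifier and promoters are in GRCm38.p6 of RefSeq.

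From these counts, barcodes were kept from 500 genes and 800 UMIs upward if no more than 2% of UMIs were mitochondrial. Scrublet (scanpy 1.11.5, expected rate 8%) marked 5.37% of nuclei as doublets, which were kept. Nuclei were clustered in Seurat 5.3.0 (2000 variable mRNAs without the 8 genes and the pathway lists, 1000 principal components, 20 neighbors, Louvain resolution 2.2). Large clusters that scored for 2 names were then divided once more within the same graph, at resolution 0.5. DCT1 and DCT2 came from this second division. A cluster was named, by a rule set after clusters had been seen, at a mean marker z of at least 0.9 with at least 3 markers 2-fold enriched and fewer than 50% doublets. Counts were summed per class and library and tested in edgeR 4.0.16 (TMM, quasi-likelihood, 1 model of the 4 groups, mRNAs with 5 or more counts in each replicate of a compared group), with Benjamini-Hochberg adjustment over all mRNAs of a class and contrast and a limit of 0.05. The 7 contrasts share libraries. The pipeline was tested on simulated data. Alternatives were DESeq2 1.42.0, its size factors, other filters and gene sets, a replicate block, no doublets, 50 principal components and each library left out. Samples were not treated as paired by replicate number. Deviations of libraries with the same replicate number had correlations of both signs, from -0.27 to 0.44 over all nuclei and from -0.29 to 0.45 in PST. A batch shared by replicates of the same number was not tested. The precision of low levels is set by UMIs per class and library, and it covers counting error only.

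The 8 genes, the lists and the tests were chosen with earlier results of these data known. Named genes are the 8, Arntl, every list gene called in a contrast, and for each of the 8 the 3 genes with the highest Pearson r of log2(mean Ctrl CPM + 1) over the 19 classes, among 13073 genes with at least 10 CPM in a class. Marker genes are named where their sums moved. The reference class of Pth1r and Fgfr1 was to be T and NK cells, but no cluster took that name, and Vasc and Myel stand in. Thinning to 1000 UMIs left out 188 to 367 nuclei per group. Other software was R 4.3.3, limma 3.58.1, Python 3.11.15, numpy 2.4.6, scipy 1.17.1, pandas 2.3.3 and matplotlib 3.10.9.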

Additional observations from a re-analysis of the deposited data

How the results depend on the processing

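Over the alternatives, calls of the 8 genes over all nuclei stayed at 0 in every contrast, and the averaged genotype, averaged time and interaction contrasts by class stayed within 1.5 times of 3, 3 and 0 calls. Leaving out single libraries gave 1 to 4 calls in place of 4 between time points in Ctrl, 0 to 3 in place of 1 in cKOt, 1 to 2 in place of 2 between genotypes at ZT4, and 0 to 1 in place of 0 at ZT16 (1 without replicate 2 of cKOt ZT16). For time points in cKOt, DESeq2 gave 3 calls, no filter on low counts gave 4, and the replicate block gave 2. The block moved no other count of calls of the 8 genes by over 1.5 times. It ended the calls of Vdr between genotypes in PCT at ZT4 (adjusted p = 0.0587) and over all nuclei (adjusted p = 0.0542). Whether replicates of the same number shared a batch was not tested. For the pathway lists, the 16 calls became 41 with DESeq2, 98 without filter, 24 with the replicate block, and 4 to 43 with single libraries left out. The share of all mRNAs called by class under each alternative is not given here, so these counts are not read as results about the genes. Over all nuclei, as printed above, DESeq2 called a larger share of all mRNAs in every contrast. The cause of the changes in counts was not tested.

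Differences near 0 changed sign, and none of them was called. With single libraries left out, the averaged genotype difference ranged from -0.011 to 0.17 for Slc20a2 in PST, from -0.10 to 0.053 for Slc34a1 in PCT and from -0.017 to 0.13 for Slc34a1 in PST, which was -0.95 with 50 principal components. The averaged time difference of Kl ranged from -0.30 to 0.25 in PCT and in PST. It turned positive in both without replicate 1 of cKOt ZT4, and in PST also without replicate 1 of Ctrl ZT16 (0.064), and it was -0.46 in PST with 50 principal components. That of Kl in DCT1 of Ctrl ranged from -0.19 to 0.56. The Slc34a3 interaction was -0.25 in PCT cluster 6. The macula densa could not be tested without doublets, since a library then held 9 of its nuclei.

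Levels in the highest class moved by less than 1 SD under other scalings, apart from Slc34a3 in PCT, 75.1 CPM from sums and 95.9 as a mean over nuclei. Shares of nuclei with a UMI depended on depth. At equal depth they were 99.3% for Slc34a1, 7.19% for Slc34a3, 5.04% for Slc20a1 and 26.5% for Xpr1 in PCT, 16.9% for Slc20a2 in thinAL, 72.8% for Kl in DCT2, and 22.0% for Fgfr1 and 37.1% for Pth1r in Podo. Depth limited the rarer genes, with 9 to 36 UMIs per library behind the call of Pth1r in aIC and 6 of 19 classes with counts enough to test Slc34a3.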

Other observations

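Some nuclei lay outside the 19 classes. Their levels are given per 1000000 of all their UMIs, and so are not on the scale of the class levels. The 4612 nuclei of clusters without a name had 146 CPM of Slc20a2, 183 of Xpr1 and 153 of Kl. Among them, cluster 28, with 499 nuclei and a median of 1648 UMIs, had 97.6 CPM of Slc20a1 and 287 of Xpr1, and 16.8 of Fgfr1. Cluster 22, with 839 nuclei and a median of 8603 UMIs, had 3247 CPM of Slc34a1 and 309 of Kl. The 183 B cell nuclei, too few for a comparison, had 265 CPM of Xpr1 and 133 of Fgfr1.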
